A study of Mus musculus with 18 samples.

Results

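APC-deleted MC38 cells were compared with APC-intact MC38 cells after 48 h in 1 µM doxycycline. MC38 is a colon adenocarcinoma line from a C57BL6 mouse, and the labels describe the lines as isogenic. The comparison used 6 of the 18 libraries of the series, chosen by their titles: 3 of the APC-deleted line with a doxycycline-inducible hairpin against Tdo2 at 48 h, and 3 of the APC-intact line with the same hairpin at 48 h. Both groups therefore carried the hairpin and had the same treatment, and all 6 libraries bear the same run designation. Both lines without doxycycline, 3 libraries each and all from the other run, served as the most similar comparison. The untreated titles lack the hairpin's name, so whether those cells carried it was not settled. Effects of the hairpin and of doxycycline cannot be told apart, and the change of time and treatment cannot be told apart from the change of run. Replicates are labelled biological triplicates, but no label ties them to separate cultures, so each p-value reflects only how far these libraries differ among themselves, and that spread may be technical. The labels do not say whether the APC-deleted line is 1 clone or how the deletion was made, so a difference due to the deletion and a difference between 2 cell populations cannot be told apart.

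Gene counts ran from 76705116 to 94991636 per library at 48 h, and 14493 genes not on the X chromosome passed the filter on low counts. Levels are given as CPM, read counts scaled to a common library size, in replicates 1, 2 and 3 of each group. Fold changes are log2 of APC-deleted over APC-intact with their standard error, and a gene is called higher or lower where edgeR's adjusted p is under 0.05. At 48 h 5077 genes were called, which is 35.0% of those tested: 2811 (19.4%) higher and 2266 (15.6%) lower in the APC-deleted cells. The counts for gene groups below are read against these shares. The groups were chosen with earlier results of these data known, so a count above a share is no independent support. The first principal component of the 6 libraries, with 62.7% of the variance, separated the lines. The second, with 13.8%, set APC-deleted replicate 2 (score 34.7) apart from the other 5 libraries (-25.2 to 3.8), and in that library the genes with the longest exonic sequence (median 7711 bases) were lower by a median of 0.09 on the log2 scale than in the other replicates. Without it 5002 genes were called, 2600 higher and 2402 lower, and only 4174 of them were among the 5077.

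APC is a scaffold of the β-catenin destruction complex, in which AXIN holds β-catenin while the kinases CK1 and GSK3 phosphorylate it for ubiquitination by β-TrCP. Without working APC, β-catenin accumulates and, with TCF and LEF factors, drives Wnt target genes, which include feedback inhibitors such as Axin2 and Rnf43. Loss of APC is the usual first step of colorectal adenoma formation. TDO2, the enzyme the hairpin targets, opens the indole ring of tryptophan and so starts the kynurenine pathway, whose products can bind the aryl hydrocarbon receptor.

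Apc had 92.5, 77.4 and 91.1 CPM in APC-deleted cells, against 148, 135 and 145 CPM in APC-intact cells at 48 h. Every APC-deleted library lay below every APC-intact one, at a log2 fold change of -0.71 ± 0.12 (adjusted p = 0.00021). A count over the whole gene cannot show a deleted exon, so the remaining reads do not say what part of Apc was transcribed. Tdo2 was near the limit of detection, with 0.0944, 0.0950 and 0.144 CPM in APC-deleted cells and 0.231, 0.235 and 0.314 CPM in APC-intact cells. These are 28 reads over the APC-deleted group and 71 over the APC-intact group, and the log2 difference of -1.21 ± 0.50 did not pass the test (adjusted p = 0.0658), though the groups did not overlap. Fitted on the 6 libraries alone, it passed in edgeR (adjusted p = 0.033).

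Promoter windows of 4 genes from the groups described below are printed here because most members of each group were higher in APC-deleted cells at 48 h and these windows hold the letters of a motif known for that group. They run from 250 bases before to 50 bases after the RefSeq transcription start on build GRCm38.p6, 5′ to 3′ on the gene's strand. In Cxcl1 and Cxcl2, neutrophil chemokines that lie close together on chromosome 5, capitals mark GGGNNTTTC, the first 9 letters of an NF-kB motif, on either strand. In Gbp2, an interferon-induced GTPase, they mark TTTCNNTTT, the first 9 letters of the interferon-stimulated response element. In Gclm, a subunit of the enzyme that limits glutathione synthesis, they mark TGACNNNGC, the antioxidant response element bound by NRF2, here on the other strand.
Cxcl1 (chr5:90890995-90891294, plus strand): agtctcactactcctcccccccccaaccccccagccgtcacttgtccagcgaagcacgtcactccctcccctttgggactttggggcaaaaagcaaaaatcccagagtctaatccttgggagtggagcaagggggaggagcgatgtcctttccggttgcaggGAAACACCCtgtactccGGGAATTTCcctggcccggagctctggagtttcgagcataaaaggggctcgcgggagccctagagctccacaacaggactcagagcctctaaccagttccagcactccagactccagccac
Cxcl2 (chr5:90903649-90903948, plus strand): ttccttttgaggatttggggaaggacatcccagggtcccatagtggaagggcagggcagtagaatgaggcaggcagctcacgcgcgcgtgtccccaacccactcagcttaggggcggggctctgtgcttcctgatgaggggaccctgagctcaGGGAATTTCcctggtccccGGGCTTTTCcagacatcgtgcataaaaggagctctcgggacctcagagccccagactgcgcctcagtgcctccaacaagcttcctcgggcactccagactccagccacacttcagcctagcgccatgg
Gbp2 (chr3:142620413-142620712, plus strand): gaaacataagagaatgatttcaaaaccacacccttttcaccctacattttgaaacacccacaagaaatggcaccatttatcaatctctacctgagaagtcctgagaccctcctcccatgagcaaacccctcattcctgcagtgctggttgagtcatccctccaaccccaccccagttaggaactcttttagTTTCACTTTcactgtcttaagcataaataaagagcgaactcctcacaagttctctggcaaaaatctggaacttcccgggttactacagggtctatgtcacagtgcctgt
Gclm (chr3:122245307-122245606, plus strand): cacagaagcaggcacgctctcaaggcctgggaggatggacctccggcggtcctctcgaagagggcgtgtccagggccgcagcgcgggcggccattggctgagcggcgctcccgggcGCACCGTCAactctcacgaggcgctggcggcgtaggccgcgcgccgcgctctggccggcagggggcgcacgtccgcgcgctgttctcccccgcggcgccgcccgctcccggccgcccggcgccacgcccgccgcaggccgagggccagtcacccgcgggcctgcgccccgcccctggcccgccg

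The Cxcl1 and Cxcl2 windows each hold 2 matches and share the run GGGAATTTC, 71 to 63 bases before the start in Cxcl1 and 97 to 89 bases before it in Cxcl2. The NF-kB letters occur in 4.36% of all 32851 RefSeq windows of this length and 5.23% of those of the 9486 tested genes that have one, and among the 9 CXC and CX3C chemokines tested in 3 (Cxcl1, Cxcl2 and Cxcl3) of the 6 that have a window. The interferon letters occur in 10.6% of all windows, in 9.46% of those of tested genes and in 21 of 33 interferon-stimulated genes with a window. Of the 23 interferon-stimulated genes that were higher and have a window, 13 hold them, which is no larger a share than in the whole group. The antioxidant letters occur in 12.4% of all windows, in 17.2% of those of tested genes and in 8 of 21 NRF2 targets, 5 of them among the 14 that were higher, again no larger a share. CTTTGAT or CTTTGTT, the TCF and LEF letters, occur in 9.33% of windows and in 0 of the 9 Wnt target genes that have one. A match is a description of the letters, and a window without one says only that they are not in these 300 bases.

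Most called differences were small: their median size was 0.35 on the log2 scale, 829 genes (5.72%) differed by at least 1 and 325 (2.24%) by at least 2. Of the 325, 87 were higher and 238 lower in APC-deleted cells. Lrrn4cl, a leucine-rich repeat membrane protein, had 533, 491 and 539 CPM in APC-deleted cells and 34.8, 34.5 and 38.2 CPM in APC-intact cells, a log2 fold change of 3.86 ± 0.07 (adjusted p = 2.5e-19). The groups did not overlap, as in 44.8% of all genes tested, and their replicates differed little beside the gap between them. Scube3, a secreted EGF-repeat protein, was higher by 3.88 ± 0.11 on the log2 scale, with 15.1, 14.7 and 14.9 CPM against 1.01, 0.939 and 1.09 CPM in APC-intact cells. Next came Ptgis (3.19), the prostacyclin synthase, Gsta4 (3.09), a glutathione transferase that clears lipid aldehydes, and Sh3rf2 (3.05). Further rises named by size were Sema3f (2.71), Podxl (2.33), Clstn3 (2.22), the collagen gene Col12a1 (2.22), the stromelysin Mmp10 (2.18), the metalloprotease Adam19 (2.13), the histone deacetylase Hdac9 (2.12), Rtn4rl1 (2.03) and Lrrc32 (2.00), the surface anchor of latent TGF-beta. Naming by size took genes with a mean of at least 5 CPM in the higher group. Klra1, an NK cell receptor singled out after its values were seen, lay just under that with 5.61, 4.004 and 5.08 CPM in APC-deleted cells and 0.0231, 0.0107 and 0.0217 CPM in APC-intact cells (7.96 ± 0.28). It belongs to a family of close copies whose reads the counting could split, and the APC-intact group had 5 reads in all.

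Differences of 3 or more on the log2 scale were called for 130 genes that were lower and 21 that were higher. Epb4.1l3, a membrane-to-cytoskeleton linker known as a tumour suppressor, had 0.0354, 0.0679 and 0.0443 CPM in APC-deleted cells and 41.7, 42.1 and 43.5 CPM in APC-intact cells, a log2 fold change of -9.74 ± 0.17 (adjusted p = 2.5e-19). Mmp2, a gelatinase of mesenchymal cells, had 0.354, 0.841 and 0.376 CPM in APC-deleted cells and 32.7, 29.8 and 32.5 CPM in APC-intact cells (-5.95 ± 0.16). Both genes were nearly silent in all 3 APC-deleted libraries and well expressed in all 3 APC-intact ones. Ttc38 (-8.31), Cd28 (-6.99), the T cell co-stimulatory receptor, Cd302 (-5.67), Sod3 (-5.31), the extracellular superoxide dismutase, Chst15 (-5.20), a chondroitin sulphotransferase, and Gpr128 (-5.08) followed. Slco2a1 (-4.51), the prostaglandin transporter, Col6a3 (-4.19), Ulbp1 (-4.09), a ligand of the NK cell receptor NKG2D, Ankrd29 (-3.47), Fut11 (-3.31) and Asic1 (-3.22), an acid-sensing channel, completed the falls named by size. Fut11 overlaps 6230400D17Rik on the other strand, and since the strand setting of the counting is not given in the sources used here, reads of such pairs cannot be told apart. Of the 291 genes named with values, 56 overlap another tested gene, 49 of them on the other strand, and the same holds for all of these. Overlaps with genes below the filter were not counted.

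**Figure D1:**
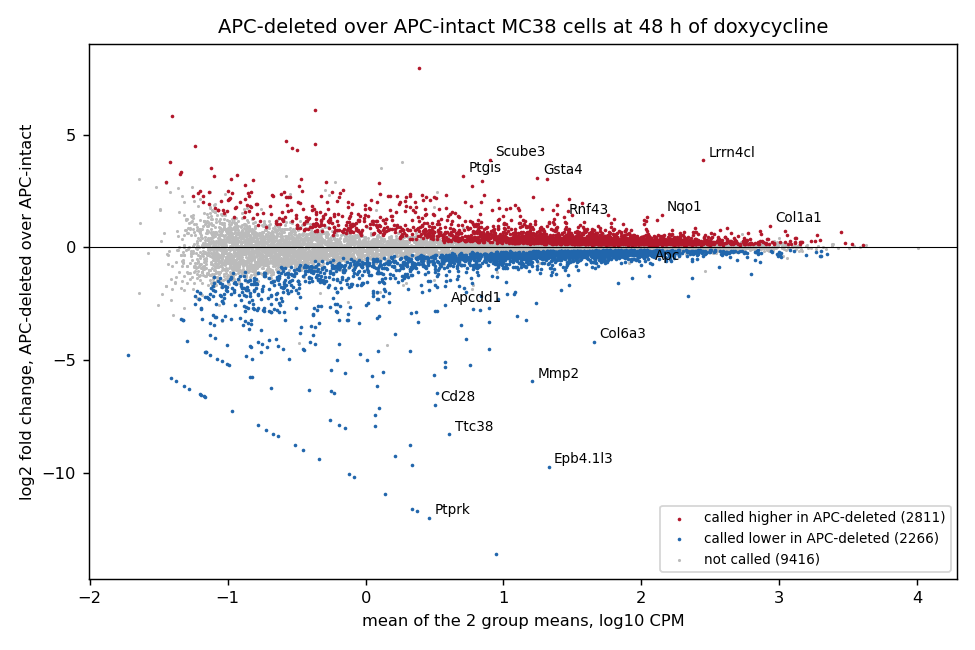
Log2 fold change of APC-deleted over APC-intact at 48 h (vertical axis) against the mean of the group means in log10 CPM (horizontal axis) for the 14493 genes tested, with genes called higher and lower in colour and some named genes labelled. More of the large differences lie below 0 than above it, 238 against 87 at 2 or more; for genes with 0 reads in 1 group the plotted value depends on the prior count and is no bound.

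Some genes gave no read at all in the APC-deleted cells. At 48 h 24 genes called lower had 0 counts over all 3 APC-deleted libraries, and all 24 were also called lower in the untreated APC-deleted line, where 1939 of all genes (13.4%) were lower and 1944 (13.4%) higher. With so few reads in APC-deleted cells, the 24 passed the filter only through the APC-intact libraries. Their being lower untreated is thus partly fixed by this choice and is no separate support. Of the 24, 17 had 0 counts in the untreated APC-deleted libraries as well and 10 had none in any of the 9 APC-deleted libraries. Ptprk, a receptor tyrosine phosphatase that binds cadherin complexes, had 0 reads in the APC-deleted libraries and 5.96, 5.27 and 6.13 CPM in APC-intact cells, so it was at least 479.5-fold lower against a floor of 3 counts over the group. Bnc1, an epithelial zinc finger factor, had 0 reads in APC-deleted cells and 4.46, 5.03 and 4.67 CPM in APC-intact cells, which is at least 392-fold lower. Adamts9, a versican-cleaving protease chosen after its values were seen, was at least 357-fold lower, and Cbr3, a carbonyl reductase, at least 229-fold. In the other direction 1 called gene, Abcc9, a potassium channel subunit also singled out after its values were seen, had 0 counts in APC-intact cells and 0.0708, 0.122 and 0.0443 CPM in APC-deleted cells.

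Of the 17 genes of the destruction complex that passed the filter, 6 were higher and 3 lower in APC-deleted cells at 48 h. Ctnnb1, which encodes β-catenin, had 599.5, 607.5 and 605 CPM in APC-deleted cells and 595, 615.5 and 591 CPM in APC-intact cells, and its mRNA did not pass the test (0.01 ± 0.05, adjusted p = 0.917). Axin2 had 7.54, 8.46 and 8.04 CPM in APC-deleted cells and 5.94, 5.71 and 5.49 CPM in APC-intact cells, an increase of 0.49 ± 0.09 (adjusted p = 0.00038) without overlap. In untreated cells the Axin2 difference was 0.80. Btrc, which encodes β-TrCP (0.33), the kinase genes Csnk1e (0.30), Csnk1d (0.18) and Gsk3a (0.15), and Axin1 (0.19) were higher. Besides Apc, the kinase Csnk1a1 (-0.14) and the ubiquitin ligase Siah1a (-0.18) were lower. Gsk3b, Fbxw11, Tnks, Tnks2, Ppp2ca, Ppp2r1a and Ppp2r5a did not pass, with values between 0.02 and 0.14. Fitted on the 6 libraries alone, 3 members were higher instead of 6, and without APC-intact replicate 2 or replicate 3, 1 was lower instead of 3. Tnks2 passed as higher without APC-deleted replicate 2 (0.23, adjusted p = 0.0051).

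Of 16 Wnt target genes that passed the filter, 7 were higher and 4 lower, with a median log2 fold change of 0.15 against 0.02 over all genes tested. A further 14 listed targets had too few reads to test, among them the crypt stem cell genes Lgr5, with 3 reads in the APC-deleted group and 0 in the APC-intact group, and Ascl2, with 3 and 16. Rnf43, a ubiquitin ligase that removes Frizzled receptors, had 38.6, 38.2 and 40.5 CPM in APC-deleted cells and 16.8, 14.0 and 15.8 CPM in APC-intact cells, a rise of 1.33 ± 0.07 (adjusted p = 9.2e-12). The lowest APC-deleted library was above the highest APC-intact one by more than the level of the APC-intact cells. Ephb3 (0.68), the transcription factors Tcf7 (0.55), Lef1 (0.55) and Sox4 (0.40), Axin2 and Myc (0.23) were also higher. Ephb2, a receptor that sorts crypt cells, was nearly absent at 0.0354, 0.0136 and 0.0332 CPM in APC-deleted cells, against 1.18, 1.65 and 1.34 CPM in APC-intact cells (-5.57 ± 0.39). Apcdd1, a Wnt inhibitor that is also on chromosome 18, was lower by 2.57 on the log2 scale, and the AP-1 genes Fosl1 (-0.51) and Jun (-0.35) were lower. Ccnd1, Cd44, Sox9, Znrf3 and Notum did not pass (-0.11 to 0.37). The direction thus differed between members of 1 list, and feedback genes and targets lay on both sides of 0.

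**Figure D2:**
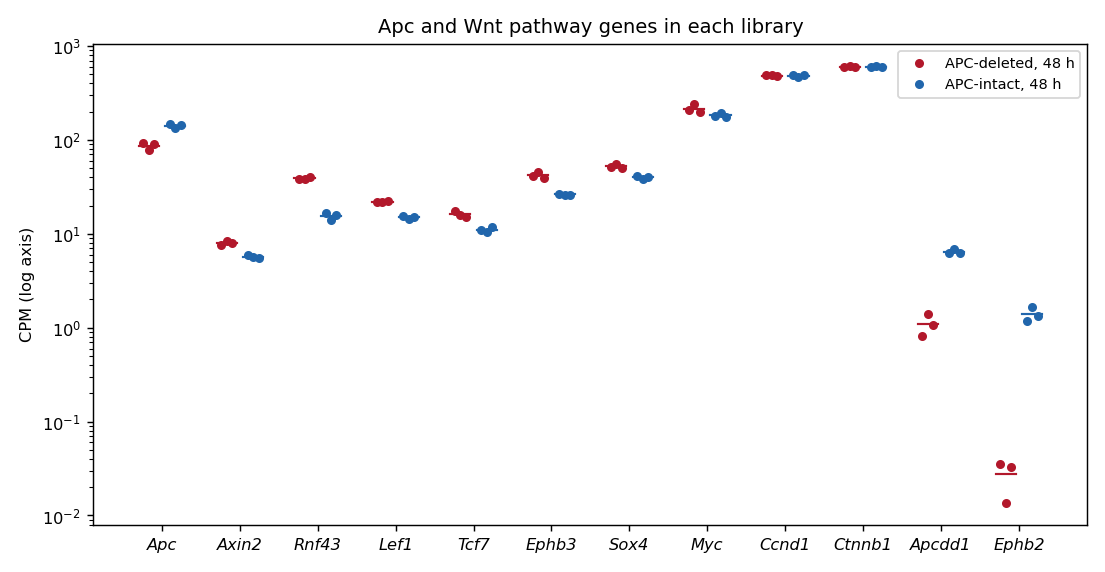
CPM on a log axis in each of the 3 APC-deleted and 3 APC-intact libraries at 48 h for Apc, Ctnnb1 and 10 Wnt target genes; each point is 1 library and each bar the mean of 3. Rnf43 and Axin2 are higher in all APC-deleted libraries, Apc, Apcdd1 and Ephb2 are lower in all of them, and Ctnnb1 overlaps.

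Among 19 TCF partners and co-factors, 5 were higher and Pygo1, a β-catenin co-activator subunit, was lower (-0.92 ± 0.06). The 5 were Tcf7l1 (0.59), Tcf7, Lef1 and the Groucho co-repressors Tle1 (0.28) and Tle3 (0.17). Of 9 Wnt ligands that passed the filter 7 were higher and 0 lower, compared with 19.4% and 15.6% of all genes. Wnt5a, a ligand that mostly signals without β-catenin, had 56.1, 50.4 and 54.6 CPM in APC-deleted cells and 36.5, 36.1 and 37.7 CPM in APC-intact cells (0.55 ± 0.06, adjusted p = 3.4e-07). Wnt11 (3.02), Wnt5b (1.99) and Wnt6 (1.08) differed more but from levels under 5 CPM. Wnt10b (0.31) and Wnt9a (0.25) were higher by less. Of 17 receptors 9 were higher, among them Fzd7 (0.58), Fzd5 (0.38), Ptk7 (0.43) and Lgr4 (0.47), a receptor for R-spondins, and 3 lower, among them Lgr6 (-1.73 ± 0.11). Ror1, a receptor for Wnt5a singled out after its values were seen, was another, with 0 reads in APC-deleted cells and 27 in APC-intact cells, none of them in replicate 1, and its call was lost without any 1 of 4 libraries (adjusted p 0.0528 to 0.0813). Of 6 secreted or cell-surface Wnt inhibitors, Frzb (1.18) and Kremen1 (0.23) were higher, and Dkk3 (-1.01) and Apcdd1 lower. Among 13 Eph receptors and ephrins 3 were higher (Ephb3, Efna4 at 0.67 and Efna1 at 0.26) and 2 lower (Ephb2 and Epha2 at -0.20), near the share over all genes.

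Beyond Tdo2, the kynurenine pathway showed few differences. Of its 8 tested genes Ccbl2, a kynurenine aminotransferase, had 21.97, 21.1 and 20.4 CPM in APC-deleted cells and 17.97, 16.99 and 16.5 CPM in APC-intact cells (0.30 ± 0.06, adjusted p = 0.0004). Slc3a2, a chain of the tryptophan and kynurenine transporter, was higher by 0.13, and its partner Slc7a5 did not pass (-0.08 ± 0.05). Ido2, Afmid, Ccbl1 and Il4i1 did not pass either (-0.42 to 0.27), though Afmid passed as lower in DESeq2 (adjusted p = 0.0459), with the stricter filter (0.0386) and without APC-deleted replicate 2 (0.029). Of 12 genes of NAD synthesis and use 4 were higher and 3 lower. Nampt, the rate-limiting enzyme of NAD salvage, rose by 0.29 ± 0.07, with 441, 340 and 406 CPM in APC-deleted cells and 327, 308 and 338 CPM in APC-intact cells. Its lowest APC-deleted library, replicate 2, lay just above the highest APC-intact one, and without APC-deleted replicate 1 the adjusted p was 0.0522. Nmnat3 (0.82), Sarm1 (0.83) and Nmnat2 (0.26) were also higher, and Nnmt (-0.41), which methylates nicotinamide, was lower. Without APC-deleted replicate 1, 2 members were higher instead of 4.

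Of 7 tested genes of the aryl hydrocarbon receptor group 5 were higher and 0 lower. The receptor gene Ahr had 51.3, 45.0 and 52.7 CPM in APC-deleted cells and 36.3, 35.6 and 37.9 CPM in APC-intact cells (0.44 ± 0.07, adjusted p = 3.6e-05). Its partner Arnt (0.27), the target Tiparp (0.27) and the antioxidant genes Nqo1 and Gsta4, which NRF2 also drives, were the others. Tiparp overlapped between the groups. The classical targets Cyp1a1, Cyp1a2 and Cyp1b1 were below the filter, with 23 reads of Cyp1a1 over the APC-deleted group and 1 over the APC-intact group.

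Of 26 tested NRF2 targets 18 were higher and 4 lower in APC-deleted cells, with a median log2 fold change of 0.37, and 17 to 20 were higher under the alternative settings. NRF2 is a transcription factor that raises antioxidant and detoxifying enzymes, and KEAP1 marks it for destruction. Nqo1, a quinone reductase, had 211, 194 and 210.3 CPM in APC-deleted cells and 73.3, 75.7 and 75.4 CPM in APC-intact cells, a rise of 1.46 ± 0.05 (adjusted p = 2.3e-14). Gstm1 (1.21), Osgin1 (1.14), Gclm (0.75), Txnrd1 (0.62), the thioredoxin reductase, and Fth1 (0.69), the ferritin heavy chain, were higher as well. Cbr3, with 0 reads in the APC-deleted cells, Slc7a11 (-0.41), the cystine transporter, and Srxn1 (-0.13) went the other way. Keap1 itself had 30.7, 36.3 and 29.1 CPM in APC-deleted cells and 59.2, 59.8 and 60.3 CPM in APC-intact cells (-0.90 ± 0.07, adjusted p = 3.9e-09), while Nfe2l2, which encodes NRF2, was higher by 0.17 ± 0.05, a call lost without APC-deleted replicate 1 (adjusted p = 0.0782). Keap1 overlaps Gm16754 on the other strand. Keap1, Nfe2l2, Txnrd1, Fth1, Slc7a11 and Srxn1 were chosen after their values were seen. In untreated cells 16 of the 26 were higher and 2 lower, and Keap1 differed by -1.04.

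All 9 CXC and CX3C chemokine genes that passed the filter were higher in APC-deleted cells at 48 h, against 19.4% of all genes, and 9 were higher under every alternative setting. These chemokines recruit neutrophils (Cxcl1, Cxcl2, Cxcl3, Cxcl5 and Ppbp) or T and NK cells (Cxcl10, Cxcl11, Cxcl16 and Cx3cl1). Cxcl10 had 317, 319 and 285 CPM in APC-deleted cells and 189.6, 187 and 189.0 CPM in APC-intact cells (0.71 ± 0.09, adjusted p = 5e-06). The APC-deleted libraries were higher without overlap, and replicate 3 was the lowest of them. Cxcl11 (2.28) and Cxcl5 (2.24) differed most, at levels under 3 CPM, and Ppbp (1.68), Cx3cl1 (0.63) and Cxcl16 (0.58) followed. Cxcl2 (1.38) and Cxcl3 (1.11), added to the named genes after their values were seen, stayed under 1 CPM in every library.

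Cxcl1 changed sides between the untreated lines and the lines at 48 h. At 48 h it had 200.6, 199 and 178 CPM in APC-deleted cells and 156, 140.3 and 165 CPM in APC-intact cells, a difference of 0.33 ± 0.08 (adjusted p = 0.0031). Without doxycycline it averaged 323 ± 23.2 CPM in APC-deleted cells and 418 ± 19.1 CPM in APC-intact cells (SD, n = 3 each), a difference of -0.37 (adjusted p = 0.0015). Both lines thus had less Cxcl1 at 48 h than untreated. The 48 h difference minus the untreated one was 0.70 ± 0.11 (adjusted p = 0.0367 in the edgeR interaction contrast). With 1 of the 12 libraries left out it passed only without APC-intact untreated replicate 3, and otherwise had adjusted p-values of 0.0667 to 0.244. This contrast called 2 of 14493 genes (0.0138%), and 1086 genes (7.49%) had an unadjusted p under 0.05. Each line's treated and untreated libraries come from different runs, so a response to time and treatment and a run effect that differs between the lines cannot be told apart.

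Among 9 CC chemokines 3 were higher and Ccl20 (-0.62) was lower. Ccl2, the main attractant of monocytes, had 1378, 1507 and 1269 CPM in APC-deleted cells and 817, 852 and 811 CPM in APC-intact cells (0.74 ± 0.07, adjusted p = 5.5e-08). Ccl5 (0.52) and Ccl7 (0.30) were higher too. Of 13 myeloid growth factors and IL6-family cytokines 5 were higher and 0 lower: Csf3 (2.37), the granulocyte factor, Lif (0.55), Csf1 (0.53), the macrophage factor, Il33 (0.50) and Il34 (0.24). Csf1 had 602, 602 and 559 CPM in APC-deleted cells and 421, 407 and 396 CPM in APC-intact cells, so no library overlapped. The untreated differences of Csf1 and Lif were 0.22 and 0.23.

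Of 20 NF-kB and acute-phase genes 7 were higher and 2 lower at 48 h, where untreated cells had 2 higher and 6 lower. Ptx3, a secreted pattern recognition protein, had 155, 142 and 151 CPM in APC-deleted cells and 67.6, 62.2 and 67.8 CPM in APC-intact cells (1.18 ± 0.07, adjusted p = 5.7e-11). Ptgs2, which encodes cyclooxygenase 2 (0.54), Nfkbia, the inhibitor that NF-kB itself induces (0.42), Nos2 (0.35) and Vcam1 (0.27) were higher, and the complement gene C3 (-0.35) lower. Fitted on the 6 libraries alone, 4 of the 20 were higher. The interaction contrast was positive at an unadjusted p under 0.05 for 11 of the 20 and negative for 0, with none past the adjusted threshold.

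Of 45 interferon-stimulated genes 31 were higher and 2 lower, with a median of 0.29. Irf1, a transcription factor of the response, had 188, 222 and 181 CPM in APC-deleted cells and 138, 129.7 and 131 CPM in APC-intact cells (0.57 ± 0.06, adjusted p = 9e-07). Irf7 had 55.6, 59.96 and 51.5 CPM in APC-deleted cells and 39.1, 36.8 and 41.5 CPM in APC-intact cells (0.51 ± 0.07, adjusted p = 2.2e-05). No library of either gene overlapped between the lines. Irf9 (0.42), the DNA-binding subunit of ISGF3, the antiviral synthase gene Oas2 (0.64), Gbp2 (0.57) and Xaf1 (0.45) were higher too. Irf9 overlaps Rnf31, and Irf7 overlaps Phrf1. Herc6 (-0.21) and Iigp1 (-0.28, on chromosome 18), the 2 that were lower, were chosen after their values were seen, and neither was called without APC-deleted replicate 2. Across the alternative settings 26 to 31 members were higher and 0 to 3 lower.

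The same list had 3 genes higher and 6 lower in untreated cells, with a median of 0.01. Irf7 differed by -0.003 there (adjusted p = 0.982), and averaged 78.9 ± 5.66 CPM in untreated APC-deleted cells and 79.1 ± 1.35 CPM in untreated APC-intact cells (SD, n = 3 each). At 48 h Irf7 was thus below its untreated level in both lines, and further below it in APC-intact cells. The interaction contrast was positive at an unadjusted p under 0.05 for 29 of 45 genes and negative for 0, against 7.49% of all genes in either direction. Only Mx2, an antiviral GTPase, passed the adjusted threshold. It had 6.03, 6.91 and 6.43 CPM in APC-deleted cells and 5.70, 5.19 and 5.17 CPM in APC-intact cells at 48 h (0.27 ± 0.09, adjusted p = 0.0268). That call was lost with no filter (adjusted p = 0.058), on the 6 libraries alone (0.083), without APC-deleted replicate 2 or 3 (0.108 and 0.075) and without APC-intact replicate 2 or 3 (0.097 and 0.107). Untreated, Mx2 averaged 5.62 ± 0.595 CPM in APC-deleted cells and 8.38 ± 0.552 CPM in APC-intact cells, a difference of -0.58, and the 48 h value minus the untreated one was 0.85 ± 0.13 (adjusted p = 0.0344). The Mx2 level of APC-intact cells was thus lower at 48 h than untreated, and that of APC-deleted cells slightly higher.

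**Figure D3:**
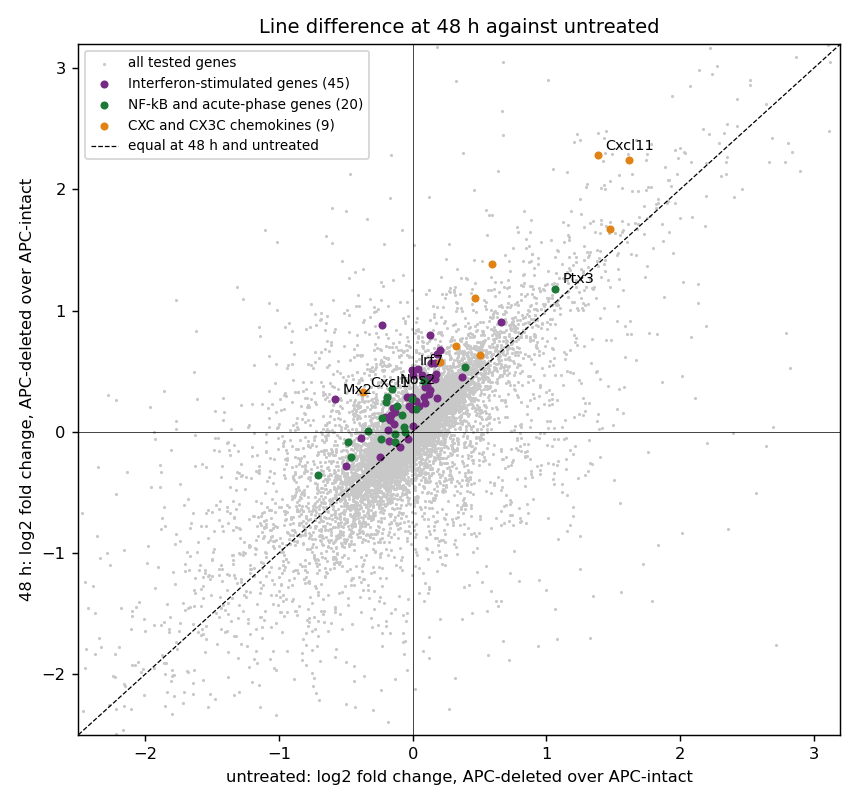
Log2 fold change of APC-deleted over APC-intact at 48 h (vertical axis) against the same for untreated cells (horizontal axis), 1 point per gene. Interferon-stimulated genes, NF-kB and acute-phase genes, and CXC and CX3C chemokines are marked, and 246 genes lie outside the axes. Interferon-stimulated genes lie near 0 on the untreated axis, at a median of 0.01, and higher on the 48 h axis, at 0.29. Both axes compare the lines, so neither gives a change of level within a line.

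Of 23 genes of MHC class I and antigen processing 10 were higher and 2 lower. Tapbp, which loads peptides onto class I molecules, had 332, 344 and 318 CPM in APC-deleted cells and 245, 236 and 242.5 CPM in APC-intact cells (0.46 ± 0.06, adjusted p = 1.7e-05). Psme1 (0.41), the peptide transporter Tap2 (0.40), the non-classical molecule gene H2-T23 (0.40) and the immunoproteasome subunit Psmb10 (0.36) were higher. Nlrc5, the transactivator of class I genes, was lower (-0.70 ± 0.09), with 20.9, 22.3 and 23.3 CPM in APC-deleted cells and 37.8, 36.1 and 34.4 CPM in APC-intact cells. Class I genes are close copies of each other and the counting could split their reads. All 12 tested checkpoint and stress ligands were called, 7 higher and 5 lower. Pvr (0.57), Lgals9 (0.44) and Fas (0.59) were higher. The NKG2D ligands Ulbp1 and Raet1d (-0.80) and the receptor Cd28 were lower.

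Glycolysis genes were mostly lower in APC-deleted cells: 13 of 24 were lower and 5 higher, and 13 to 15 were lower under the alternative settings. The number higher was 3 on the 6 libraries alone and without APC-deleted replicate 3 or APC-intact replicate 2 or 3. Ldha, which makes lactate, had 536, 595 and 567.5 CPM in APC-deleted cells and 836, 928 and 874 CPM in APC-intact cells (-0.64 ± 0.06, adjusted p = 3.8e-08). Slc16a3, the lactate exporter, had 44.7, 55.2 and 46.0 CPM in APC-deleted cells and 118.5, 129.6 and 122 CPM in APC-intact cells (-1.34 ± 0.07). The groups did not overlap for either gene. Pfkl (-0.77) and Pdk1 (-0.61), the kinase that holds pyruvate out of mitochondria, were lower too, whereas Slc2a3, a glucose transporter (1.77), and Ldhb (0.95) were higher. Untreated cells had 14 lower and 4 higher.

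Hypoxia targets overlapped in part with these genes and had 12 of 23 lower and 2 higher. Ankrd37 (-1.20), Bnip3 (-0.63), a mitophagy receptor, Ddit4 (-0.58), an mTOR inhibitor, Bhlhe40 (-0.41) and P4ha1 (-0.29), a collagen hydroxylase, were lower. Bnip3 had 42.4, 33.6 and 44.0 CPM in APC-deleted cells and 57.6, 61.6 and 66.1 CPM in APC-intact cells, without overlap. The 2 that were higher were Epas1 (0.56), which encodes HIF2α and was named after its values were seen, and Arnt, the partner of the HIF factors. Untreated cells had 9 lower and 2 higher.

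Of 49 nuclear genes of the respiratory chain 12 were higher and 2 lower, with values between -0.24 and 0.37. Sdha (0.20 ± 0.04), Ndufv2 (0.37), Cyc1 (0.24), Ndufb10 (0.31), Uqcrc2 (0.19) and Cox8a (0.22) had the smallest p-values. The count was not stable: 7 were higher without APC-deleted replicate 2, 6 without APC-intact replicate 1, 6 without APC-intact replicate 3 and 3 when only the 6 libraries were fitted. None of 13 mRNAs of the mitochondrial genome was called by edgeR over all 18 libraries or by DESeq2, and their median was 0.41 at 48 h and -0.30 untreated. The median was 0.14 without APC-deleted replicate 2. Fitted on the 6 libraries alone, 3 of 12 were higher, and 2 were without APC-deleted replicate 3 and 1 without APC-intact replicate 1. mt-Nd2 had 640, 826 and 457 CPM in APC-deleted cells and 442, 390 and 454 CPM in APC-intact cells (0.58 ± 0.26, adjusted p = 0.105), so the lowest APC-deleted library lay just above the highest APC-intact one and the APC-deleted libraries were spread widely. It passed on the 6 libraries alone (adjusted p = 0.0493) and without APC-deleted replicate 3 (0.0467).

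Among 27 genes of ATF4 and amino acid supply 4 were higher and 8 lower, among them Atf3 (-0.66), Atf5 (-0.34) and Psph (-0.32), the last enzyme of serine synthesis, which were lower. Fgf21 (0.44) and Nupr1 (0.29), stress-induced genes, were higher. Without APC-intact replicate 2, 4 were lower instead of 8, and without APC-intact replicate 1 or replicate 3, 2 were higher. Of 20 tRNA synthetase genes 6 were lower and Yars (0.27) was higher. Lars (-0.30), Nars (-0.32) and Hars (-0.29), which lie on chromosome 18, Rars (-0.27) and Farsb (-0.20) were among the 6. Of 27 genes of cholesterol and fatty acid synthesis 5 were lower, among them Stard4 (-0.46), Fdps (-0.33), Scd2 (-0.25) and Lss (-0.17), and 2 were higher. The share that was higher lay below that over all genes, and the number higher was 0 to 3 with 1 library left out.

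Of 23 collagen genes 8 were higher and 5 lower. Col1a1, the main chain of type I collagen, had 1075, 1203 and 1098 CPM in APC-deleted cells and 570.1, 602 and 559 CPM in APC-intact cells (0.96 ± 0.06, adjusted p = 1.8e-10). Col6a3 had 3.69, 4.04 and 6.18 CPM in APC-deleted cells and 90.1, 83.1 and 82.7 CPM in APC-intact cells. Col8a1 (0.87) and Col3a1 (0.27) were higher like Col1a1, and Col7a1 (-1.24) and Col5a3 (-0.72) lower like Col6a3. Without APC-deleted replicate 1, 3 collagens were lower, and without replicate 2 it was 8. Of 19 metalloproteinases and TIMP inhibitors 12 were higher, led by Mmp10, Mmp13 (1.496), Timp3 (1.46), Mmp9 (1.23) and Reck (0.59), and 2 were lower, of which Mmp2 was far the larger change.

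Among 28 integrins and laminins 9 were higher and 5 lower. Itgb7, a lymphocyte integrin chain, had 842, 960.0 and 876 CPM in APC-deleted cells and 598, 584 and 582 CPM in APC-intact cells (0.60 ± 0.05, adjusted p = 3.6e-08). Itgb3 (0.66), Itga1 (0.70) and Itgb2 (0.47) were higher too. Without APC-deleted replicate 1, 3 were lower. Of 15 cadherins and linkers 7 were higher and 3 lower, with Cdh10 (2.86), Cdh17 (0.88), the liver-intestine cadherin, Cdh13 (0.57) and Jup (0.38) on 1 side and Epb4.1l3 and Cdh5 (-0.92) on the other, and without APC-intact replicate 3 the number higher was 4. Of 25 semaphorins, plexins and neuropilins 10 were higher and 7 lower. The secreted guidance cues Sema3f and Sema3c (1.71), Sema6c (0.84) and the receptor Plxnd1 (0.45) were higher and Sema7a (-1.26) and Sema4g (-1.59) lower. Of 10 small leucine-rich proteoglycans Aspn (1.27), Prelp (0.87) and Lum (0.91) were higher and Ogn (-0.35) lower; Aspn and Ogn overlap Cenpp on the other strand.

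Of 12 FGF ligands, receptors and carriers 5 were higher and 0 lower. Fgf7, a fibroblast factor for epithelia, had 217, 183 and 199.6 CPM in APC-deleted cells and 136, 119 and 139 CPM in APC-intact cells (0.61 ± 0.07, adjusted p = 5.4e-07). Fgfbp1 (1.71), which releases FGFs from the matrix, Fgf21, Fgfrl1 (0.33) and Fgfr1 (0.24) were the others. Of 15 Notch genes 7 were higher and 0 lower, among them the ligands Dll1 (1.23) and Jag2 (1.05) and the receptors Notch1 (0.57) and Notch3 (0.92). Of 29 TGF-beta and BMP genes 13 were higher and 3 lower (1 lower without APC-intact replicate 3), with Fstl1 (0.58), Chrd (0.58), Acvr1b (0.42), Tgfbr3 (0.35), Bmp1 (0.32) and Tgfb3 (0.22) having the smallest p-values. Of 23 receptor tyrosine kinases and their ligands 10 were higher and 6 lower. Egfr had 104.6, 92.6 and 102.5 CPM in APC-deleted cells and 51.8, 45.2 and 47.1 CPM in APC-intact cells (1.06 ± 0.08, adjusted p = 4.4e-09). Pdgfra (0.76), Pdgfrb (0.37) and Flt1 (1.58) were higher too, and the ligands Hgf (-2.94) and Btc (-1.95) lower.

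Of 37 genes of DNA replication 8 were higher and 5 lower, near the shares over all genes (19.4% and 15.6%), with values between -0.43 and 0.37. Pcna, the polymerase clamp, had 162, 167 and 157 CPM in APC-deleted cells and 186.5, 199.9 and 199 CPM in APC-intact cells (-0.27 ± 0.05). Rfc5 (-0.43), Tyms (-0.38) and Gins3 (-0.34) were lower too, whereas Cdt1 (0.37) and Rpa1 (0.23) were higher. Without APC-deleted replicate 3, 5 were higher, and on the 6 libraries alone 4. Of 26 genes of G2 and M phase 8 were higher, led by Aurkb (0.36 ± 0.05), and Kif20a, on chromosome 18, was lower. The number higher ranged over 3 to 10 when 1 library of the 6 was left out (4 without APC-deleted replicate 1, 5 without replicate 3, and 4, 4 and 3 without APC-intact replicates 1, 2 and 3) and was 1 when only the 6 libraries were fitted.

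Of 24 p53 targets 10 were higher and 2 lower. Plk2 had 649, 617 and 651 CPM in APC-deleted cells and 486, 462 and 471 CPM in APC-intact cells (0.43 ± 0.05, adjusted p = 4.8e-07). Trp53inp1 (0.90), the repair genes Ddb2 (0.69) and Xpc (0.40) and the death receptors Fas and Tnfrsf10b (0.46) were higher. The 2 that were lower were Pmaip1, which encodes the BH3 protein NOXA (-2.80, on chromosome 18), and Cdkn1a, the p21 gene (-0.39), which was chosen after its values were seen. In the BCL2 family 2 of 16 were higher and 2 lower, below the shares over all genes (19.4% and 15.6%). Bcl2l15 had 16.9, 17.03 and 17.2 CPM in APC-deleted cells and 5.68, 4.85 and 4.90 CPM in APC-intact cells (1.73 ± 0.07, adjusted p = 5.3e-13). Its untreated difference was 1.13, and the interaction value of 0.60 ± 0.10 had an unadjusted p of 1.1e-05 without passing the adjusted threshold. Of 32 AP-1 and immediate early genes 10 were higher, among them Fosb (0.65), and 13 lower, among them Klf2 (-0.77), Atf3, Klf4 (-0.52), Fosl1 and Spry4 (-0.42). Without APC-deleted replicate 2, 6 were higher, and without APC-intact replicate 3 or on the 6 libraries alone, 4.

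Imprinted genes included large differences, but the counts of 4 of 16 higher and 3 lower were near the shares over all genes (19.4% and 15.6%). H19, a noncoding RNA, had 1.29, 0.638 and 0.985 CPM in APC-deleted cells and 0.220, 0.128 and 0.173 CPM in APC-intact cells (2.48 ± 0.36). Its neighbour Igf2 had 10.4, 10.5 and 9.26 CPM in APC-deleted cells and 14.5, 15.4 and 15.6 CPM in APC-intact cells (-0.59 ± 0.08). Cdkn1c (1.09), Slc22a18 (0.71) and Zrsr1 (0.69) were higher, and Plagl1 (-6.24) and Mest (-2.68) lower at levels under 1 CPM, Mest being named after its values were seen and overlapping Copg2 on the other strand. Of 23 HOX genes 5 were higher, among them Hoxc13 (0.61), Hoxc11 (0.47) and Hoxc6 (0.31), and 5 lower, among them Hoxb6 (-2.10), Hoxa6 (-0.92) and Hoxd8 (-0.41). Both HOX counts were near the shares over all genes, and without APC-deleted replicate 1 or APC-intact replicate 3, 3 were higher. Of 17 nuclear noncoding RNAs H19 and Pvt1 (0.22) were higher. Malat1 had 129, 198 and 247 CPM in APC-deleted cells and 493, 343 and 337 CPM in APC-intact cells, and the difference of -1.03 ± 0.45 did not pass in edgeR over all 18 libraries (adjusted p = 0.0946). It passed in DESeq2 (adjusted p = 0.0472) and in edgeR on the 6 libraries alone (0.0138).

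**Figure D4:**
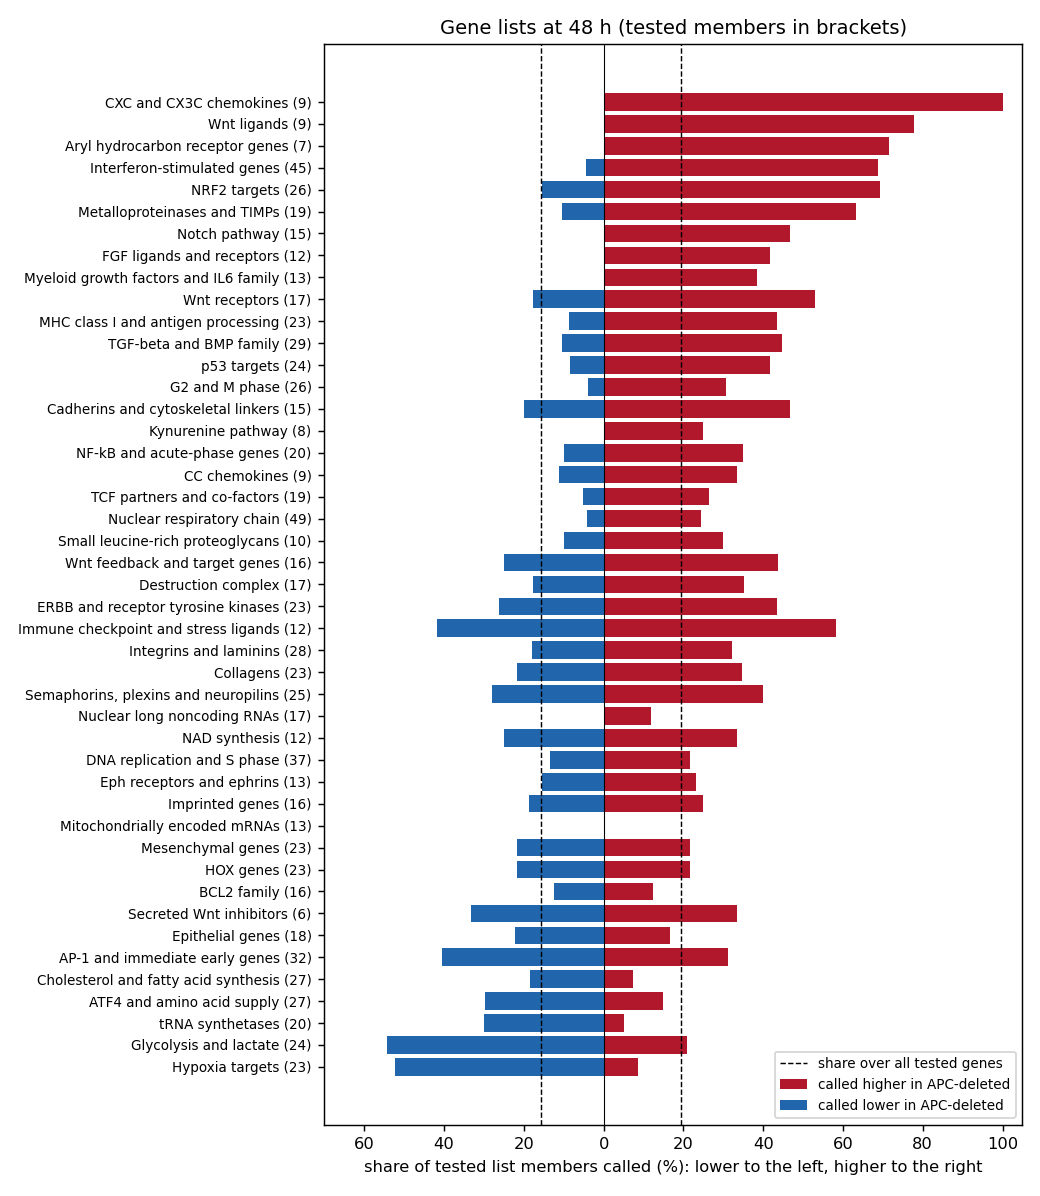
Number of members called higher (right of 0) and lower (left of 0) in APC-deleted cells at 48 h for each gene list, as a percentage of its tested members, with the shares over all genes, 19.4% and 15.6%, as lines. CXC and CX3C chemokines reach 9 of 9 higher, interferon-stimulated genes 31 of 45 and NRF2 targets 18 of 26, while glycolysis and hypoxia targets have 13 of 24 and 12 of 23 lower. The lists were chosen with earlier results of these data known.

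Markers of colon epithelium were scarce in both lines. Of 18, 12 were below the filter, with 0 counts of Cdx2, Car1 and Tff3 in either group and 1 read of Epcam in the APC-deleted libraries against 0 in the APC-intact ones. Krt8 (1.01) was higher, and Krt19 (-4.66) and Vil1 (-2.21) were lower at levels under 1 CPM. Of 18 epithelial genes 3 were higher and 4 lower. Cdh1, which encodes E-cadherin, had 1.64, 1.40 and 1.95 CPM in APC-deleted cells and 1.79, 1.41 and 1.203 CPM in APC-intact cells and did not pass (0.18 ± 0.23). Of 23 mesenchymal genes 5 were higher, among them Twist1 (0.39), Snai1 (0.33) and Sparc (0.17), and 5 lower, among them Mmp2, S100a4 (-0.88) and Snai2 (-0.45), so that neither list moved 1 way. The mesenchymal counts were near the shares over all genes, 19.4% higher and 15.6% lower. The number of mesenchymal genes higher was 3 without APC-deleted replicate 2 and 2 without APC-intact replicate 3, and the number lower was 3 without APC-intact replicate 1.

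Of 14 fibroblast markers 5 were higher, Fbln1 (-0.96) was lower and 8 were not called, with a median log2 fold change of -0.03. Thy1 had 0 counts in both groups. The summed level of the 14 was 3847 to 3914 CPM in APC-deleted libraries and 3125 to 3151 CPM in APC-intact libraries. That sum includes Col1a1, a highly expressed gene that was higher, so it does not describe the list as a whole. Of 6 tested endothelial markers 3 were higher and 1 lower, with sums of 9.39 to 10.4 CPM in APC-deleted libraries and 7.74 to 8.73 CPM in APC-intact libraries and 0 counts of Cldn5 and Emcn. Of 6 tested haematopoietic markers 2 were higher (Cd79a at 2.29 and Cd68 at 0.66) and 2 lower (Lyz2 at -0.88 and Laptm5 at -2.26). Their sums were 14.96 to 21.2 CPM in APC-deleted libraries and 11.3 to 12.3 CPM in APC-intact libraries. The defining haematopoietic marker Ptprc had 1 read in the APC-deleted group and 2 in the APC-intact group, and Cd3e, Ms4a1, Adgre1 and Cd52 had 0 in both, beside the higher chemokine and interferon-stimulated genes. In bulk RNA more cells of a kind and more RNA per cell cannot be told apart. Reads that fell in no annotated gene made up 5.67 ± 0.423% of APC-deleted libraries and 6.59 ± 0.377% of APC-intact libraries (SD, n = 3 each), and their part in the differences was not tested.

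Genes on chromosome 18, which carries Apc, were lower than the rest. Their median log2 fold change was -0.17 over 385 tested genes, against 0.02 over genes elsewhere, and 74.3% lay below 0, against 46.8% elsewhere. Of the 385, 37.1% were called lower and 5.97% higher, where all genes had 15.6% and 19.4%. All 5 stretches of 20 Mb had medians between -0.21 and -0.12, so the shift ran along the whole chromosome. Among the 10 tested genes nearest to Apc 5 were lower, among them its neighbour Srp19, chosen after its values were seen (59.2, 61.4 and 59.5 CPM in APC-deleted cells, 77.3, 79.4 and 81.2 CPM in APC-intact cells, -0.40 ± 0.06), and 0 were higher. The 10 ranged over -0.45 to 0.13, and Apc at -0.71 lay below them all. Untreated, the chromosome's median was -0.16, and at 48 h it lay between -0.20 and -0.15 under every alternative setting. Chromosome 5 had a median of -0.11 and chromosome 12 one of 0.14. Members of the lists that lie on chromosome 18, such as Lars, Nars, Hars, Apcdd1, Pmaip1, Spry4, Stard4 and Iigp1, were lower beside this shift, whereas Sh3rf2 and Pdgfrb were higher against it. Copy number was not measured here.

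**Figure D5:**
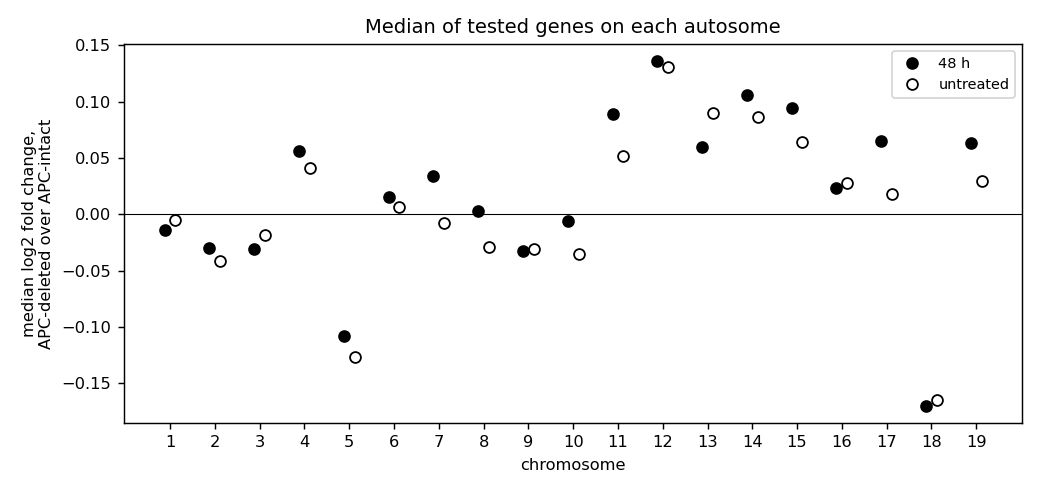
Median log2 fold change of APC-deleted over APC-intact for the tested genes of each autosome, at 48 h and in untreated cells; 0 is no difference. Among autosomes chromosome 18 is lowest at 48 h, at -0.17, and chromosome 12 highest, at 0.14, and the untreated medians lie close to those at 48 h; the mitochondrial genome is not drawn.

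Most of the 48 h difference was also present without treatment. In untreated cells 3883 genes were called (26.8%), from libraries that the 48 h comparison does not share. Of the 5077 calls at 48 h, 3128 (21.6% of all genes tested) were called in the same direction untreated, which is 61.6% of the 48 h calls and 80.6% of the untreated ones. Fitted on the compared libraries alone, 5439 genes were called untreated and 3671 at 48 h, with 2960 called in both in the same direction. Which comparison had more calls, and both shares, thus depended on the libraries fitted. Across all tested genes the 2 log2 fold changes had a Pearson correlation of 0.84, given as a description since genes are not independent replicates and both contrasts set the same lines against each other. Of the 48 h calls 96.8% had the same sign untreated. The largest rises and falls were of like size in both comparisons: Scube3 differed by 3.88 at 48 h and 4.15 untreated, Lrrn4cl by 3.86 and 3.795, Epb4.1l3 by -9.74 and -8.78, and Mmp2 by -5.95 and -5.74. In the opposite direction 5 genes (0.0345%) were called in both comparisons: Cxcl1, Mx2 and, chosen after their values were seen, Gdnf (0.17 at 48 h, -0.16 untreated), Bmp2 (-0.33 and 0.41) and Egln3 (-0.23 and 0.16). Of these 5, Cxcl1 and Mx2 passed the test of the difference itself.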

How the data were processed

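RNA of MC38 cells was sequenced in 18 libraries. The deposited files hold whole-number counts for each gene, and an RPKM column that was not used here. STAR, HTSeq and the mm10 build are named in the submitters' processing notes. Versions, strand setting and annotation release are not given in the sources used here. The run designation was read from the deposited file names. Rows that name no gene held 23.9 to 25.5% of each 48 h library, mostly reads that were not unique, and entered neither library sizes nor tests, nor did the 2617 genes on the X chromosome of the 39179 in the files.

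The test was edgeR 4.0.16 (R 4.3.3) on the deposited counts: filterByExpr by group, TMM factors (0.978 to 1.03), 1 coefficient per group over all 18 libraries, which share 1 estimate of the spread, robust glmQLFit and glmQLFTest, with Benjamini-Hochberg adjustment at 0.05. The contrasts were APC-deleted minus APC-intact at 48 h, untreated, and the difference of those. The common biological coefficient of variation was 8.28%. CPM are counts over library size times TMM factor. On simulated data of 14356 genes, 200 with a mean above 1 CPM were changed, with the spread of this same fit. For the 48 h comparison edgeR recovered 86% of 1.5-fold and 98% of 2-fold changes with 4 false calls. DESeq2 recovered 91% and 98% with 23 false calls. The real data had far more calls, genes under 1 CPM and an outlying library, so these rates may not hold for them. Replicates of a group differed by more than sampling noise and were counted separately. Floors cover counting error only.

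Genes are named by rule: the 15 largest rises and 15 largest falls without overlap, with an assigned symbol and a mean of 5 CPM or more in the higher group; up to 6 members of each list by smallest adjusted p; every tested gene of the destruction complex, Wnt target and kynurenine lists; and genes called in the difference of contrasts. A few genes that this rule or the lists name are not reported here. Members and lists were chosen with earlier results of these data known, and lists share genes. Promoter windows came from RefSeq on GRCm38.p6, with 9486 tested genes matched by symbol; motifs were searched as 7 to 9 letters on both strands. Alternatives were DESeq2 1.42.0, RLE factors, no filter, a filter of 1 CPM in 3 libraries, a block for the replicate number, X genes kept, only the compared groups, and each library left out in turn.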

Additional observations from a re-analysis of the deposited data

Results flagged for a closer look

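Cxcl1 and Mx2 are singled out because the line difference at 48 h was not the line difference of untreated cells, by a test of the difference itself in edgeR. For Cxcl1 the 48 h value minus the untreated value was 0.70 on the log2 scale (adjusted p = 0.0367): its level was above that of APC-intact cells in 3 of 3 APC-deleted libraries at 48 h and its untreated mean was below. For Mx2 the same difference was 0.85 (adjusted p = 0.0344), again with 3 of 3 APC-deleted libraries above the APC-intact ones at 48 h. Neither call held in every alternative, and with 7 different libraries left out 1 at a time no gene was called in this contrast. The change of treatment is also a change of run, so both cannot be told apart.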

How the results depend on the processing

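The number of genes called at 48 h stayed within 1.5 times of 5077 in every alternative run. It was 3671 when only the 6 libraries were fitted (1773 higher and 1898 lower), 4586 with no filter, 5350 with DESeq2 and 4065 to 5002 with 1 library left out. The contrast between 48 h and untreated rests on few calls: 2 in edgeR, 55 with DESeq2, 12 with no filter, 1 with the stricter filter, 3 with X genes kept, 0 with only the compared groups, and 0 to 3 with 1 of the 12 libraries left out. It was 0 without APC-deleted 48 h replicate 3, APC-intact 48 h replicates 2 and 3, APC-deleted untreated replicates 1 and 2, or APC-intact untreated replicates 1 and 2. The cause was not tested. A replicate block gave 5297 calls at 48 h and 2 in that contrast. At 48 h the deviations of same-numbered samples from their group means had correlations of -0.064, 0.048 and 0.020. Whether same-numbered libraries were prepared together was not tested. Of 291 genes named, 269 were called and 0 of these changed direction; 37 were not called under some alternative. Axin1, Csnk1d, Cyc1, Nupr1, Sparc and Vcam1 were lost on the 6 libraries alone. The others were lost without 1 or more libraries (adjusted p 0.0511 to 0.252): Bmp2, Ccl20, Cox8a, Csnk1a1, Epas1, Gdnf, Gsk3a, Herc6, Iigp1, Il34, Lss, Lum, Mx2, Myc, Nampt, Ndufb10, Nfe2l2, Nmnat2, Ogn, Prelp, Pvt1, Ror1, Siah1a, Slc3a2, Slc7a11, Snai1, Srxn1, Tiparp, Tle3, Uqcrc2 and Vil1. Of these, Gsk3a, Slc3a2 and Tiparp were also lost with all 18 libraries under RLE factors (0.058, 0.0575 and 0.0552). They were lost too with no filter, the stricter filter and X genes kept. Lum was lost under DESeq2 (0.0527) and no filter, and Ccl20 under the replicate block (0.062) and no filter. Bmp2, Csnk1a1, Mx2, Nmnat2, Slc7a11 and Srxn1 were also lost with no filter (adjusted p 0.0573 to 0.122 in edgeR). Afmid, Malat1, Tdo2, Tnks2 and mt-Nd2 gained a call under some alternative. With 1 library left out, 16 of the 49 lists had a count of higher genes that moved by over 1.5 times and 19 a count of lower genes that did.

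Only 8 genes that did not pass changed sign, all but Ido2 and Il4i1 with log2 values near 0. On the 6 libraries alone Ccbl1 was at -0.0045, Ccnd1 at -0.017, Ctnnb1 at -0.017, Gsk3b at -0.0072 and Ppp2r5a at -0.0069. With the stricter filter they were at -0.0079, -0.021, -0.020, -0.011 and -0.010 in that order. With X genes kept Ccnd1 was at -0.011, Ctnnb1 at -0.010, Gsk3b at -0.00047 and Ppp2r5a at -0.00046. Ccnd1 was at -0.0013 with DESeq2 and with RLE factors, and Ctnnb1 at -0.00078 with both. With 1 library left out the values were -0.042 to 0.067 for Ccbl1, -0.015 to 0.0069 for Ccnd1, -0.016 to 0.019 for Ctnnb1, -0.0072 to 0.107 for Fbxw11, -0.058 to 0.097 for Gsk3b, -0.739 to 0.140 for Ido2, -0.109 to 0.522 for Il4i1 and -0.020 to 0.029 for Ppp2r5a. Depth limits Tdo2, Lgr5, Ascl2 and the other genes near 0 counts.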
